A study of Gallus gallus with 6 samples.

Results

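The genes described here are the heparin-binding growth factors midkine (MDK) and pleiotrophin (PTN) with cell-surface and matrix proteins that bind them: the receptor phosphatase PTPRZ1, the syndecan SDC3 and the proteoglycan neurocan (NCAN). They were chosen by symbol from a list of 6 genes, and 5 of the 6 were analysed, out of 6789 genes in the count table. The receptor kinase ALK, the remaining gene of the list, was not analysed here. All 5 genes passed the filter on low counts, as did 5041 genes of the table.

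RNA was sequenced from Hes5.3-positive cells sorted by flow cytometry from chick (Gallus gallus) retinas of embryonic day 5. In the treated group retinas had been kept in medium (DMEM with serum) holding retinoic acid (RA) at 2.5 µM over 8 h, and in the control group in medium holding the solvent DMSO over the same 8 h. There were 3 libraries with RA and 3 control libraries, and each pooled 2 retinas from different embryos. The opposite eyes of the same embryos went to the other group, which makes 3 pairs, numbered 1, 3 and 4. All libraries came from cells that carry the same sorting marker, so the unsorted remainder of the retina was not measured. The labels do not say how the marker is driven.

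Midkine and pleiotrophin form a family of small secreted proteins with a common fold that bind heparan sulfate and chondroitin sulfate chains. Midkine was found as the product of a gene switched on by retinoic acid in embryonal carcinoma cells, and the chick protein was named retinoic acid-induced heparin-binding protein. Both growth factors bind the chondroitin sulfate chains of PTPRZ1, a transmembrane tyrosine phosphatase of neural progenitors and glia, and the heparan sulfate chains of SDC3, a syndecan of growing axons. Neurocan is a secreted chondroitin sulfate proteoglycan of the neural matrix.

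Total counts per library ranged from 19808063 to 27235633. The RA-degrading enzyme CYP26A1, a direct target of RA receptors, served as a check of the treatment. It measured 2942, 2286 and 3902 CPM (counts scaled to a common library size of 1e+06) in the RA libraries of pairs 1, 3 and 4, against 81.1, 73.5 and 86.1 CPM in their controls. Markers of retinal progenitors were abundant, with a summed level of 7325 to 8844 CPM in RA libraries and 6659 to 7746 CPM in controls over 10 genes. Ganglion cell markers summed to 357 to 479.5 CPM with RA and 426.5 to 470.4 CPM in controls over 7 genes. Lens markers summed to 61.7 to 91.4 CPM with RA and 56.3 to 66.8 CPM in controls over 10 genes. Pigment epithelium markers summed to 46.6 to 51.3 CPM with RA and 40.5 to 46.3 CPM in controls over 6 genes, and blood markers to at most 9.95 CPM over 4 genes, with HBE and GATA1 at 0 counts in every library. Mesenchyme markers summed to at most 25.3 CPM over 8 genes, with DCN at 0 counts in every library.

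The question put to the growth factors was whether RA moves their transcripts within 8 h. Midkine rose with RA and was the only 1 of the 5 genes to pass the test. It measured 389.9, 419 and 535 CPM in the RA libraries of pairs 1, 3 and 4, against 252, 345 and 361 CPM in the control libraries of the same pairs. Every RA library stood above every control library, so the groups did not overlap. Such a separation was seen in 4.42% of all genes tested. The mean was 448 ± 77.0 CPM with RA and 319 ± 58.7 CPM in controls (SD, n = 3 each).

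The fitted log2 fold change of MDK, RA over control, was 0.49 ± 0.08 (SE), which is 1.41-fold with a 95% interval of 1.26 to 1.58. The test was edgeR's quasi-likelihood F-test with the pair as a block, adjusted by Benjamini-Hochberg over all 5041 genes, and it gave MDK an adjusted p of 0.00218. The same threshold was passed by 62 genes, 1.23% of all tested. Of these, 53 were higher with RA (1.05% of all tested) and 9 were lower (0.179%). By p-value MDK ranked 20 among the genes tested, and by size of rise it ranked 268. Its mean count over the 6 libraries was 9095. In these bulk samples a change in the number of cells of a type and a change in RNA per cell cannot be told apart.

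Within pairs, MDK was higher with RA in 3 of 3, by 54.6% in pair 1, 21.6% in pair 3 and 48.3% in pair 4. Being higher in 3 of 3 pairs was shared with 15.7% of all genes tested. On the log2 scale the differences were 0.63, 0.28 and 0.57. Counting error was small beside them: the 95% Poisson interval of the RA library of pair 3 was 410.0 to 428.2 CPM, and that of its control 336.9 to 352.5 CPM. Pair 3 thus had the smallest rise, and it lay outside counting error too. Such intervals cover counting error only, since amplified reads without molecular identifiers are not independent molecules.

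**Figure D1:**
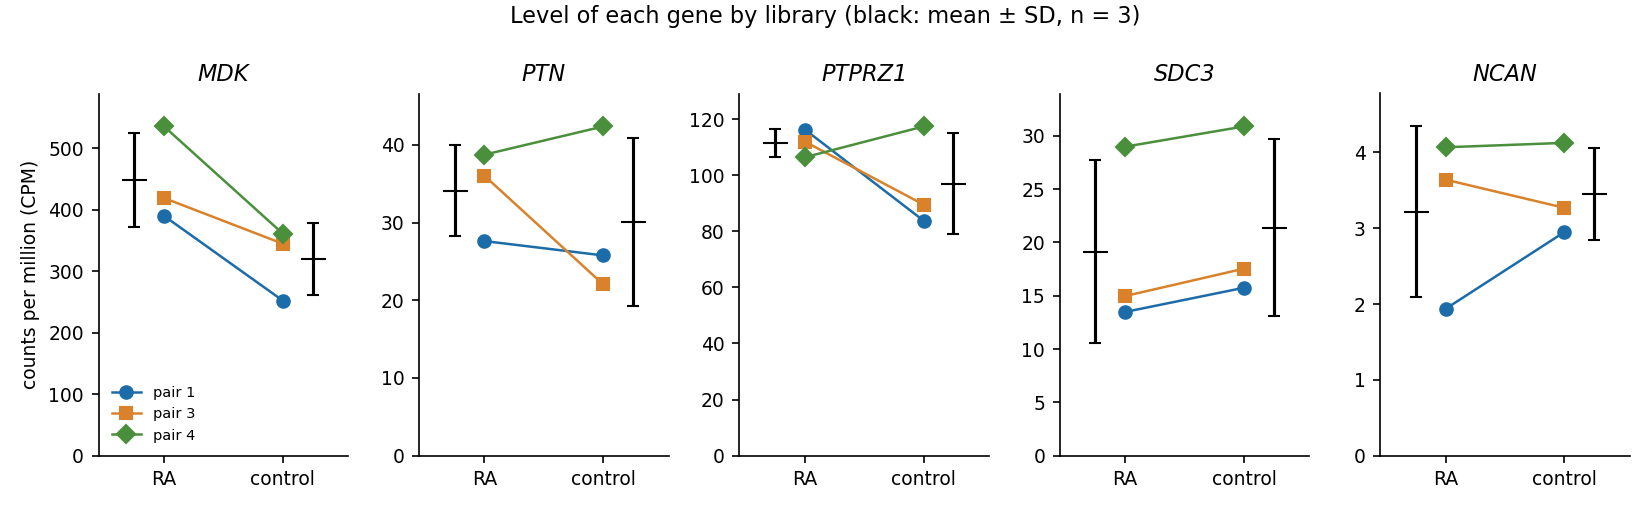
Level of MDK, PTN, PTPRZ1, SDC3 and NCAN in CPM, with the RA libraries on the left and the control libraries on the right of each panel. Coloured lines join the libraries of a pair, and black bars give the mean ± SD (n = 3). All 3 lines of MDK are higher at the RA end, whereas the lines of PTN, PTPRZ1 and NCAN differ in direction between pairs.

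The level of MDK also differed between the pairs. An F-test of the pair terms in the same edgeR fit gave an adjusted p of 0.00739 for MDK. Over all genes tested 14.7% passed that test, and of the 5 genes MDK and SDC3 did. The mean over both libraries of a pair was 321 CPM in pair 1, 382 CPM in pair 3 and 448 CPM in pair 4. The pairs hold different embryos and also differed in cells sorted, at 98000, 161000 and 200000 in the RA samples of pairs 1, 3 and 4 and 57000, 192000 and 200000 in the controls, and these cannot be told apart. The span between the control libraries, 1.43-fold from lowest to highest, was about as large as the change with RA. Without the replicate block, where the spread between pairs stays in the error, the log2 fold change of MDK was again 0.49, but its edgeR adjusted p was 0.94 and its unadjusted p 0.0082. With a pair left out and the block kept, MDK stayed past the threshold each time, with a log2 fold change of 0.43 to 0.60 and edgeR adjusted p-values of 0.00196 to 0.00898.

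The list of RA response genes gave a range of sizes to set beside MDK. Of its 12 genes 8 were analysed and 7 tested, and edgeR called 3, all higher with RA. CYP26A1 had a log2 fold change of 5.22 ± 0.10 (SE), DHRS3, a retinaldehyde reductase, 3.29 ± 0.13, and RARB, an RA receptor induced by its own ligand, 0.91 ± 0.11. The 4 genes not called were TGM2, a transglutaminase with a mean count of 10, at 1.00 ± 0.81, STRA6, a retinol transporter, at 0.14 ± 0.12, the RA-binding protein CRABP1 at 0.00 ± 0.10 and the receptor RARA at -0.06 ± 0.33. TGM2 and STRA6 are named after their values were seen. MDK thus lay below the 3 called genes and TGM2, and above the other 3. In the authors' deposited table MDK had a log2 fold change of 0.50 and an adjusted p of 0.0385, and it was 11th by p-value of 4752 genes. That table rests on the same libraries and holds 12 genes with an adjusted p under 0.05.

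Pleiotrophin, the other growth factor, did not pass the test. It measured 27.6, 36.0 and 38.8 CPM in the RA libraries of pairs 1, 3 and 4, against 25.8, 22.1 and 42.4 CPM in the controls. The groups overlapped, and the highest library of all was the control of pair 4. The mean was 34.1 ± 5.79 CPM with RA and 30.1 ± 10.8 CPM in controls (SD, n = 3 each). The log2 fold change was 0.18 ± 0.16 (SE, edgeR adjusted p = 0.797), and the 95% interval ran from 0.896-fold to 1.43-fold. A rise of PTN as large as the fitted 1.41-fold of MDK therefore lay just inside its interval.

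The pairs went different ways for PTN. Pairs 1 and 3 had log2 differences of 0.10 and 0.71, and pair 4 had -0.13. Without pair 3 the fitted value was -0.03, so the sign of the PTN estimate rested on that pair. The F-test of the pair terms gave PTN an edgeR adjusted p of 0.0614.

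Whether the balance of the growth factors shifted was examined as the log2 ratio of MDK to PTN, RA over control, which needs no gene length. Pairs 1 and 4 gave 0.53 and 0.70 and pair 3 gave -0.43, with a mean of 0.27 and an SD of 0.61. An exact 2-sided sign-flip permutation test over the 3 pairs gave p = 0.5 (with 3 pairs it cannot go below 0.25). The change of MDK was thus larger than that of PTN in pairs 1 and 4 and smaller in pair 3, and a difference between them was not shown.

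**Figure D2:**
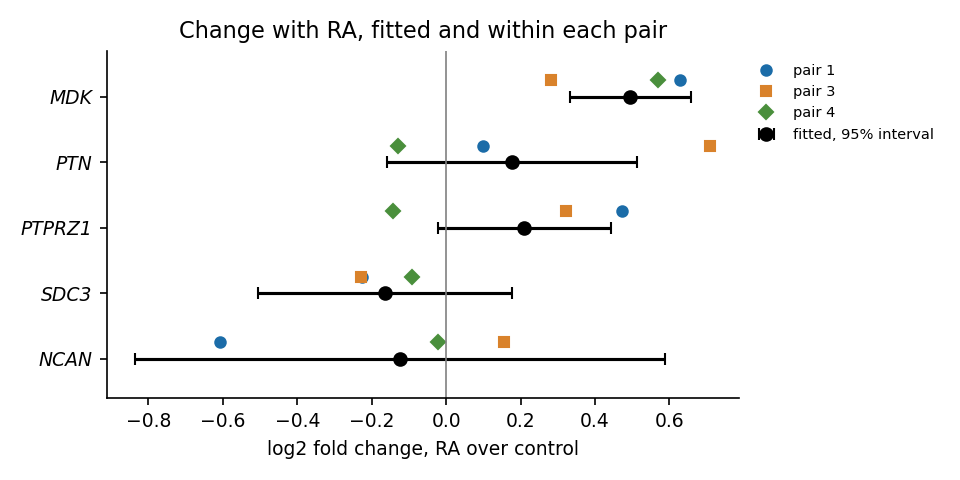
Log2 fold change of each gene, RA over control. Black points are the fitted values with 95% intervals, and coloured points above them are the differences within pairs 1, 3 and 4. The interval of MDK, 0.33 to 0.66, lies to the right of 0, and those of the other 4 genes include 0.

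The receptor phosphatase PTPRZ1 had a positive estimate that missed the threshold. It measured 116, 112 and 106 CPM in the RA libraries of pairs 1, 3 and 4, against 83.8, 89.5 and 117 CPM in the controls. The RA libraries lay close together, and the control of pair 4 stood above all 3 of them. The mean was 112 ± 4.97 CPM with RA and 96.9 ± 17.99 CPM in controls (SD, n = 3 each). The log2 fold change was 0.21 ± 0.11 (SE, edgeR adjusted p = 0.581, unadjusted p = 0.0721), and the 95% interval ran from 0.985-fold to 1.36-fold.

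The estimate for PTPRZ1 depended on the pair. It was higher with RA by 38.8% in pair 1 and 25.1% in pair 3, and lower by a log2 difference of -0.14 in pair 4. Without pair 4 the fitted log2 fold change was 0.41 (edgeR adjusted p = 0.11), and without pair 1 it was 0.08 (edgeR adjusted p = 0.894). PTPRZ1 is known from glia, and glial markers, led by FABP7, summed to 1402, 1660 and 1668 CPM in the RA libraries of pairs 1, 3 and 4, against 1690, 1500 and 1325 CPM in the controls over 6 genes. PTPRZ1 and this sum differed in opposite directions in pairs 1 and 4 and were both higher with RA in pair 3. The part of glial cells in the values of PTPRZ1 was not tested.

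Syndecan-3 was slightly lower with RA in each pair, without passing the test. It measured 13.5, 14.97 and 29.0 CPM in the RA libraries of pairs 1, 3 and 4, against 15.8, 17.5 and 30.9 CPM in the controls. The groups overlapped widely, since both libraries of pair 4 lay far above the other 4. The mean was 19.1 ± 8.55 CPM with RA and 21.4 ± 8.27 CPM in controls (SD, n = 3 each). The log2 fold change was -0.16 ± 0.16 (SE, edgeR adjusted p = 0.822), and the 95% interval ran from 0.705-fold to 1.13-fold. Being lower in 3 of 3 pairs was shared with 14.3% of all genes tested.

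SDC3 differed between pairs more than between groups. Its pair means were 14.6 CPM in pair 1, 16.2 CPM in pair 3 and 29.9 CPM in pair 4, and the F-test of the pair terms gave an edgeR adjusted p of 0.00269. SDC3 is known from growing axons. The summed ganglion cell markers were 447, 479.5 and 357 CPM in the RA libraries of pairs 1, 3 and 4, and 457, 470.4 and 426.5 CPM in the controls, lowest in pair 4. Single markers differed in this. In the controls of pairs 1, 3 and 4 NEFM measured 207.2, 184.6 and 118.9 CPM, lowest in pair 4. ELAVL4 measured 183.4, 216.6 and 245.0 CPM in the same libraries, highest in pair 4. The part of ganglion cells in the level of SDC3 was not tested.

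Neurocan had the lowest counts of the 5 genes. It had 54, 71 and 95 counts in the RA libraries of pairs 1, 3 and 4, against 70, 71 and 109 counts in the controls. This was 1.94, 3.64 and 4.07 CPM with RA and 2.95, 3.27 and 4.13 CPM in controls, so the groups overlapped. The mean was 3.21 ± 1.13 CPM with RA and 3.45 ± 0.61 CPM in controls (SD, n = 3 each). The log2 fold change was -0.12 ± 0.33 (SE, edgeR adjusted p = 0.957), and the 95% interval, 0.561-fold to 1.503-fold, was the widest of the 5 genes.

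NCAN was lower with RA in pair 1, with a log2 difference of -0.61. There the 95% Poisson intervals, 1.45 to 2.53 CPM with RA and 2.30 to 3.73 CPM in the control, overlapped slightly. Such an overlap does not by itself place the difference within counting error, which was not tested. The log2 difference was 0.16 in pair 3 and -0.02 in pair 4. No change in NCAN was called, and changes of the size seen in MDK lay inside its interval.

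Across the 5 genes, 1 was called higher and 0 lower by edgeR at an adjusted p under 0.05, and 1 had an unadjusted p under 0.05. Over all genes tested the unadjusted threshold was passed by 9.56%, with 6.15% higher and 3.41% lower. DESeq2 and limma-voom also called MDK alone. The median log2 fold change was 0.18, beside -0.01 over all genes tested. The control library of pair 4 was the highest of the 3 controls for each of the 5 genes. Over all genes tested this held for 34.4%, and the genes are too few and too related for that count to be read further. Among the RA libraries pair 4 was highest for MDK, PTN, SDC3 and NCAN, and lowest for PTPRZ1.

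**Figure D3:**
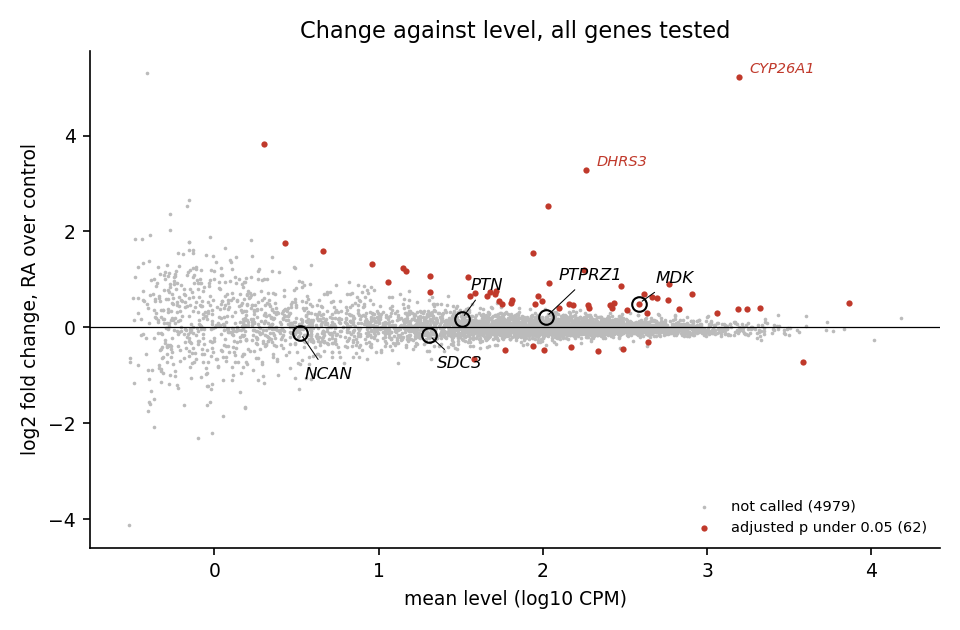
Log2 fold change, RA over control, against the mean level in log10 CPM for all 5041 genes tested. Red points are those 62 genes with an adjusted p under 0.05, and black circles mark MDK, PTN, PTPRZ1, SDC3 and NCAN. MDK is the only circled gene among the red points, and NCAN sits where low counts widen the scatter.

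Most marker lists had a summed level that differed in the same direction in 3 of 3 pairs, some by narrow margins. Of all single genes tested, 15.7% were higher with RA in 3 of 3 pairs and 14.3% were lower. A sum can be set by 1 abundant gene, so the direction of a sum need not be that of its markers. The summed progenitor markers were higher with RA in 3 of 3 pairs, at 7768, 7325 and 8844 CPM in RA libraries of pairs 1, 3 and 4, against 7398, 6659 and 7746 CPM in controls. Among them NR2E1, a nuclear receptor of retinal progenitors, rose by 0.39 ± 0.06 and SFRP1, a secreted Wnt modulator, rose by 0.38 ± 0.06 (log2 fold change ± SE, edgeR adjusted p = 0.00364 and 0.00441), 2 of 10 markers called. The summed lens markers were higher with RA in 3 of 3 pairs too, at 61.7, 91.4 and 65.7 CPM against 58.1, 66.8 and 56.3 CPM in controls, with 0 of 6 tested markers called by edgeR and 2 at an unadjusted p under 0.05. The pigment epithelium sum was higher with RA in 3 of 3 pairs, at 48.5, 51.3 and 46.6 CPM against 40.5, 44.6 and 46.3 CPM in controls. These sums did not overlap, by a narrow margin, and for single genes such a separation was seen in 4.42% of all tested. Most of the sum was MITF, which overlapped between groups and was lower with RA in pair 4, at 41.4 against 42.5 CPM. Of the 4 tested markers 0 had an unadjusted p under 0.05. The blood sum was also higher, at 2.04, 9.95 and 5.05 CPM with RA against 2.02, 4.79 and 4.81 CPM in controls. Most of it was PTPRC, which was higher with RA in pair 3 (log2 difference 1.07) but lower in pairs 1 and 4 (-0.29 and -0.02). The mesenchyme sum was lower, at 14.4, 24.2 and 17.0 CPM with RA against 18.3, 25.3 and 18.2 CPM in controls. Endothelial markers summed to 67.9 to 97.6 CPM with RA and 98.0 to 139.8 CPM in controls over 4 genes. Nearly all of this sum was KDR, a VEGF receptor that fell by 0.47 on the log2 scale (edgeR adjusted p = 0.0107). The others, CDH5, ERG and VWF, had at most 19, 1 and 9 counts in any library. The sum thus describes KDR and not endothelium as a cell type. Among glial markers OLIG2, a transcription factor of the oligodendrocyte lineage, rose by 1.60 ± 0.31 (SE, edgeR adjusted p = 0.0127), 1 of 5 tested. The part of these lists in the rise of MDK was not tested.

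The surroundings of these genes were described by 4 lists. The first held other receptors and binding partners of the growth factors, such as integrins, glypicans and nucleolin. Of its 22 genes 11 were analysed and 10 tested, and edgeR, DESeq2 and limma-voom each called 0 of them. At an unadjusted p under 0.05 there was 1 of 10, close to the 9.56% of all genes tested. It was the integrin subunit ITGAV, which had a log2 fold change of 0.33 ± 0.11 (SE, edgeR adjusted p = 0.272). Its log2 difference was 0.76 in pair 1, against 0.14 and 0.06 in pairs 3 and 4. Without pair 1 the fitted value of ITGAV was 0.10 (edgeR adjusted p = 0.763), and without pair 4 it was 0.46 (edgeR adjusted p = 0.0486). NOTCH2, a Notch receptor reported to bind midkine, had 0.14, nucleolin (NCL), a nuclear and surface protein that binds midkine, had -0.04, and the syndecan SDC4 had -0.14. The list median was -0.01, the same as over all genes tested at this precision. LRP1, an endocytic receptor for midkine, had 0 counts in every library, and was among 623 such genes in the count table. Whether such genes are absent from the cells or their rows collect no reads was not tested.

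The second list held lecticans, tenascins and the adhesion molecules that bind PTPRZ1 or neurocan. Of its 14 genes 11 were analysed and 8 tested. EdgeR called 1 of them, higher with RA, beside 1.05% of all genes tested, whereas DESeq2 called 2 and limma-voom 0. The gene called by edgeR was tenascin-C (TNC), a matrix glycoprotein that binds PTPRZ1 and neurocan. It had 90, 143 and 46 counts in the RA libraries of pairs 1, 3 and 4, against 28, 46 and 10 counts in the controls. In CPM this was 3.23, 7.33 and 1.97 with RA and 1.18, 2.12 and 0.379 in controls. The groups overlapped, since the RA library of pair 4 was below the control of pair 3, but TNC was higher with RA in 3 of 3 pairs.

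The log2 fold change of TNC was 1.77 ± 0.40 (SE, edgeR adjusted p = 0.0397). The call was lost in 9 of 13 alternatives, and with a pair left out the edgeR adjusted p was 0.0716 to 0.377, while the log2 fold change stayed between 1.67 and 1.91. Contactin-2 (CNTN2), an axonal adhesion molecule that binds neurocan, measured 3.30, 5.49 and 4.196 CPM in the RA libraries of pairs 1, 3 and 4, against 1.01, 2.25 and 2.16 CPM in the controls. Its groups did not overlap, a separation in this direction that 4.42% of all genes tested showed. At a log2 fold change of 1.25 ± 0.36 (SE) its edgeR adjusted p was 0.143. NCAM1, a neural adhesion molecule that binds neurocan, had a log2 fold change of 0.24 ± 0.07 (SE, edgeR adjusted p = 0.139), and is named after its values were seen. These were the 3 genes of the list with an unadjusted p under 0.05, all higher with RA, against 6.15% of all genes tested. NRCAM, an axonal cell adhesion molecule, was at 0.10 and the large lectican VCAN at -0.05. The list median was 0.27.

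**Figure D4:**
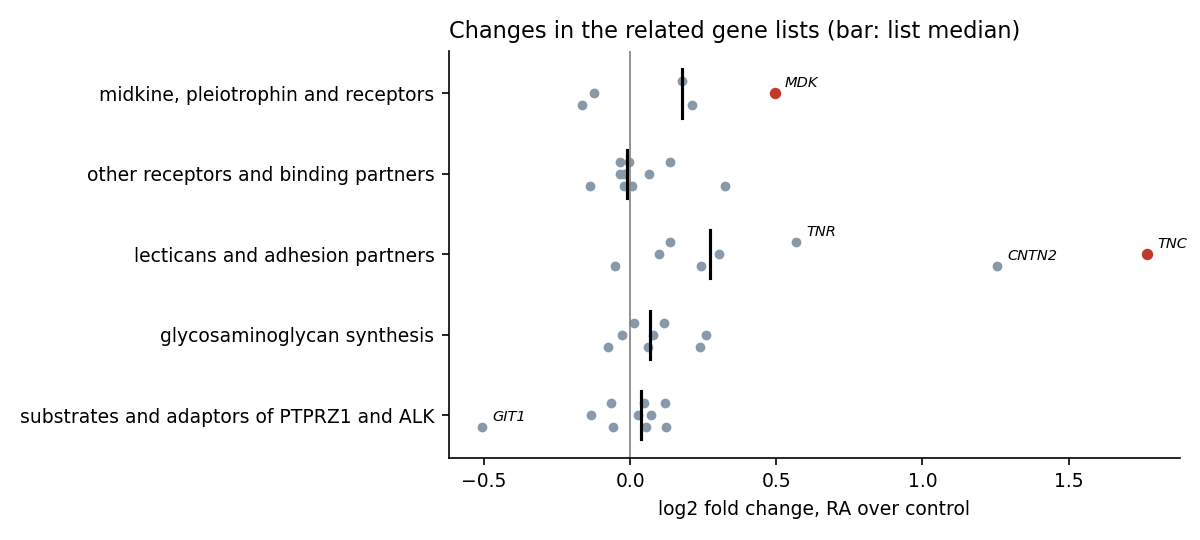
Log2 fold change, RA over control, of each tested gene in the 5 lists. Red points passed an adjusted p of 0.05, black bars are list medians, and genes beyond 0.45 in either direction are named. MDK and TNC are the only red points, and the medians run from -0.01 to 0.27.

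The third list held enzymes that build and sulfate the glycosaminoglycan chains to which midkine and pleiotrophin bind. Of its 36 genes 8 were analysed, all of them tested, and edgeR, DESeq2 and limma-voom each called 0. At an unadjusted p under 0.05 there were 2 of 8, both higher with RA, beside 6.15% of all genes tested. CHST3, a chondroitin sulfotransferase, had a log2 fold change of 0.26 ± 0.08 (SE, edgeR adjusted p = 0.201), and measured 141, 133 and 159.7 CPM in the RA libraries of pairs 1, 3 and 4, against 114, 111 and 138 CPM in the controls. HS6ST1, a heparan sulfate sulfotransferase, had 0.24 ± 0.08 (SE, edgeR adjusted p = 0.245). HS6ST2, a relative of HS6ST1, had -0.08, and B4GALT7, which adds the first galactose of the linker, had -0.03. The list median was 0.07.

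The fourth list held substrates of PTPRZ1 and adaptors of ALK inside the cell. Of its 15 genes 10 were analysed, all of them tested, and edgeR called 0, with 0 at an unadjusted p under 0.05. GIT1, a scaffold protein dephosphorylated by PTPRZ1, measured 4.16, 4.97 and 3.98 CPM in the RA libraries of pairs 1, 3 and 4, against 6.70, 5.20 and 6.396 CPM in the controls. Its groups did not overlap, a separation in this direction that 3.05% of all genes tested showed, but at a log2 fold change of -0.51 ± 0.28 (SE) the edgeR adjusted p was 0.62. The adaptors SHC1 and FRS2 had 0.12 each, and paxillin (PXN), a focal adhesion adaptor, -0.13. The list median was 0.04, and DESeq2 and limma-voom also called 0 of these genes.

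The genes whose profile over the 6 libraries was most like that of MDK, by Pearson's r of log2 CPM among 4499 others with a mean count of at least 50, were DCAF7 (0.98), WDR18 (0.98) and SPTBN1 (0.97). Their log2 fold changes were 0.09, 0.12 and 0.16, and none passed the test for RA (lowest edgeR adjusted p 0.426). Most like PTN were PIGA (0.98), POPDC2 (0.97) and TTLL5 (0.96), and they were not called either. The libraries share pairs and treatment, so such values over 6 points describe likeness only. Among the 5 genes themselves, MDK had an r of 0.57 with PTN, 0.65 with PTPRZ1, 0.39 with SDC3 and 0.29 with NCAN. PTN had an r of 0.72 with PTPRZ1, 0.68 with SDC3 and 0.60 with NCAN. The genes named before were picked as the highest of all, so these values had to be lower and are not to be compared with them.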

How the data were processed

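The authors deposited whole-number counts per gene symbol for 6 libraries, a table of CPM for 4752 genes, and a table of log2 fold changes with p-values for a paired comparison whose test is not stated in its header. The submitters' processing notes name STAR 2.5.3a, HTSeq 0.6p1, edgeR 3.18.1 and the build galGal5, without roles. Per the labels' protocols, single reads of 100 bases came from amplified cDNA. Each deposited CPM column equals the counts times 1 factor, within a relative 4.5e-09.

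The tests used the deposited counts, with edgeR 4.0.16 in R 4.3.3: filterByExpr (minimum count 10 in 3 libraries, minimum total 15), TMM scaling, glmQLFit with pair and treatment, and Benjamini-Hochberg adjustment over 5041 genes. CPM values use the TMM-scaled library sizes. The standard error is the log2 fold change divided by the root of F, and the 95% interval uses the moderated degrees of freedom. The fit was also run on simulated counts, in which genes of a like level had the same spread. Such counts cannot check how the fit moderates the spread of single genes. Limma 3.58.1 and DESeq2 1.42.0 were alternatives.

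The pairing comes from the design, in which both eyes of an embryo go to opposite groups. Deviations of log2 CPM correlated at 0.29 in pair 1, 0.25 in pair 3 and 0.34 in pair 4. No replicates agreed within sampling noise (smallest chi-square per degree of freedom 42.6). The members and lists were chosen with earlier results of these data known. Named are the 5 genes, and in each list the called genes and the 2 highest and 2 lowest changes at a mean count of at least 50. Levels are not compared between genes, since no transcript lengths were used here, and no coordinates are given, since the reference table is of another build. All 5 symbols matched RefSeq symbols of GRCg7b. Whether counting used strand is not given in the sources used here, so reads of overlapping genes may be mixed.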

Additional observations from a re-analysis of the deposited data

How the results depend on the processing

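No result reversed among those called. The number of genes changed by RA, 62, was 8 without the replicate block, 41 at an adjusted p under 0.01, and 28 to 86 with a pair left out, lowest without pair 3. The other tests, scalings and filters gave 47 to 88. In the authors' deposited paired comparison, whose test is not stated, 12 of 4752 genes had an adjusted p under 0.05. MDK kept its call in 12 of 13 alternatives and lost it without the replicate block (log2 fold change 0.49, edgeR adjusted p = 0.94), over a range of adjusted p from 6.64e-07 to 0.94. RARB also lost its call without the block (0.92, adjusted p = 0.115). PTN, PTPRZ1, SDC3 and NCAN were not called in any of the 13. With a pair left out PTN ranged from -0.025 to 0.40 and was reversed without pair 3, and NCAN ranged from -0.25 to 0.051 and was reversed without pair 1. PTPRZ1 ranged from 0.08 to 0.41, and the MDK to PTN ratio from 0.05 to 0.61.

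Of the uncalled list genes that are named by the rule, which are the ones refitted here, those that reversed with a pair left out ranged from -0.15 to 0.062 (VCAN), -0.020 to 0.21 (NRCAM), -0.064 to 0.026 (B4GALT7), -0.029 to 0.31 (FRS2), -0.35 to 0.045 (PXN), -0.24 to 0.012 (RARA) and -0.070 to 0.14 (CRABP1). CRABP1, at 0.0011 with all pairs, was also reversed without the block (-0.0047) and under limma-voom (-0.0053). The cause was not tested. The scalings moved the median of all genes by less than 0.01. The legacy and robust forms of the edgeR fit were chosen after seeing the data. Counts were low for NCAN and TNC, with means of 78.3 and 60.5.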

Other observations

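The ratio of MDK to the other binding proteins was chosen for description after the values were seen. The log2 ratio of MDK to SDC3, RA over control, took the values 0.85, 0.51 and 0.66 for pairs 1, 3 and 4, with an SD of 0.17. The ratio of MDK to NCAN was 1.24, 0.13 and 0.59 in the same pairs. Both were higher with RA in 3 of 3 pairs. With 3 pairs of the same sign the exact 2-sided sign-flip permutation p is 0.25 whatever the sizes, so the test adds no support. The ratio of MDK to PTPRZ1 was 0.16, -0.04 and 0.71.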
